A study of Homo sapiens with 9 samples.

Results

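The comparison described here is siLRWD1-5, a short interfering RNA (siRNA) against LRWD1, with a scrambled siRNA in A673 cells, an established Ewing sarcoma line. Its members are the 3 libraries labelled siLRWD1-5 and the 3 labelled scrambled siRNA, which are 6 of the 9 libraries of the series. The other 3 libraries received another siRNA against the same gene, siLRWD1-6, and serve only as a reference for the genes named below. In every group the siRNA was at 13 nM, was delivered by reverse transfection with siLentFect, and RNA was taken after 48 h. The labels mention 3 independent experiments and give each library a series number from 1 to 3. Whether libraries with the same number came from the same experiment is not stated. Cells of all groups grew in medium with serum approved for Tet systems, Zeocin and blasticidin, and the labels do not say what the antibiotics select. The series belongs to an RNA interference screen of cell viability in Ewing sarcoma lines with EWS-FLI1. The comparison asks what siLRWD1-5 changed across all genes, with and without scrambled replicate 2, a library that stood apart from the other controls.

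The LRWD1 protein, known as ORCA, carries WD repeats and sits with the origin recognition complex at the sites from which DNA replication starts, and also at heterochromatin. An siRNA is loaded into an Argonaute protein, and its guide strand directs cleavage of a transcript with a full match. Guide strands can also lower other transcripts that pair with their seed, the bases near the 5′ end, much as a microRNA does, most often through sites in 3′ UTRs. Ewing sarcoma cells depend on EWS-FLI1, a fusion transcription factor that activates a set of neural and developmental genes and represses mesenchymal ones.

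The 9 libraries held between 11971179 and 15674452 counted reads, and the 13648 genes kept for testing held at least 99.92% of them. On a principal component plot of the 6 libraries, the component with 61.7% of the variance separated siLRWD1-5 from scrambled, and the next, with 22.7%, separated scrambled 2 (-36.63) from scrambled 1 and 3 (18.33 and 15.11). Scrambled 2 differed from the other scrambled libraries with a chi-square per gene of 29.57 and 24.99, against 3.676 between those 2 libraries and 4.106 to 5.677 among the siLRWD1-5 libraries. Of 9 marker genes of A673 written down for the check, 8 were expressed enough to be tested, among them NR0B1, STEAP1, PRKCB and NKX2-2, while CD99, a surface marker of Ewing sarcoma, was below the count filter. The cause of the low CD99 count was not tested. Of 25 markers of other cell types, 8 to 11 were at 0 in each of the 6 libraries, and CD3E, ALB, HBB, KRT14 and MYOG were at 0 in all of them. Their summed level was 781.85 to 945.02 CPM (counts scaled to a common library total) in scrambled and 595.58 to 630.47 CPM with siLRWD1-5, nearly all of it ACTA2, a smooth muscle actin (734.549 to 883.69 against 540.009 to 570.983 CPM). The part of these markers in the results was not tested, and in bulk libraries fewer cells of a type and less RNA per cell cannot be told apart.

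The targeted gene was lower in all siLRWD1-5 libraries. LRWD1 had 49.1, 54.6 and 49.3 CPM in scrambled 1 to 3 and 10.6, 11.3 and 10.4 CPM in siLRWD1-5 1 to 3, where CPM is the count relative to a library total scaled by TMM (trimmed mean of M values). The groups were far apart and tight within themselves. LRWD1 was 4.73-fold lower, with a log2 fold change of -2.24 (standard error, SE, 0.10, n = 3 a group, adjusted p = 9.05e-08 in the edgeR quasi-likelihood fit, adjusted by Benjamini-Hochberg), and -2.19 without scrambled 2.

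Across all genes, siLRWD1-5 changed a large share of the transcriptome by modest amounts. Of 13648 genes tested, 5292 (38.8%) had an adjusted p under 0.05 and are called here, 2527 of them higher (18.5%) and 2765 lower (20.3%). The median fold of called genes was 1.42 upward and 1.43 downward. At least 2-fold changes were called for 445 genes higher (3.26%) and 443 lower (3.25%), and at least 4-fold changes for 59 and 36. Without scrambled 2, 3326 genes were higher (24.0% of 13868 tested) and 3464 lower (25.0%). Of the genes called with all libraries, 2402 of 2527 higher and 2642 of 2765 lower kept their call in that fit, which also added 888 and 808 genes. The 3 siLRWD1-5 libraries were all above the 3 scrambled libraries for 3172 genes (23.2%) and all below them for 3351 (24.6%).

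The genes that rose at least 2-fold and those that fell at least 2-fold lay at different expression levels. Among the 2730 genes with the lowest expression, 0.356 to 5.07 CPM, 273 genes were called at least 2-fold higher and 125 at least 2-fold lower. Among the 2730 with the highest, 95.1 to 16400 CPM, the numbers were 13 and 64. The genes called at least 2-fold higher summed to 3734.7 CPM in scrambled and 10259.9 CPM with siLRWD1-5, and those called at least 2-fold lower to 33710.4 and 13732.8 CPM. The median standard error of the log2 fold change was 0.289 among the lowest and 0.0715 among the highest, so smaller changes could pass at high expression.

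**Figure D1:**
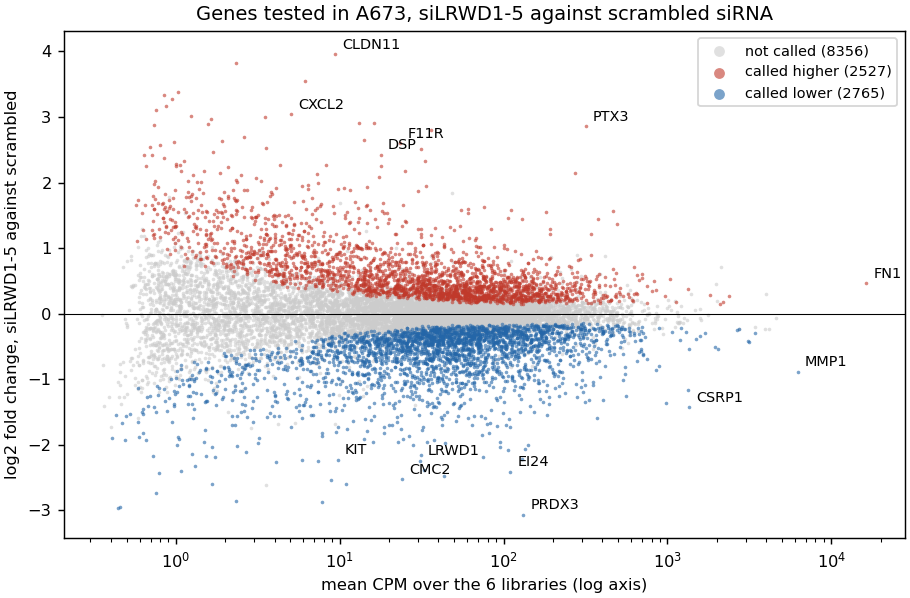
Each point is a gene tested, with its mean CPM over the 6 libraries on a log axis and its log2 fold change, siLRWD1-5 against scrambled; red points were called higher (2527), blue lower (2765) and grey not called. The large rises lie mostly at low expression, whereas PRDX3, EI24, CSRP1 and MMP1 mark falls among abundant transcripts.

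Of the 15 genes that rose furthest, CLDN11 rose most. Genes ranked by fold or CPM difference had to be called with and without scrambled 2, with groups that did not overlap. CLDN11, a claudin of tight junctions, had 1.71, 1.13 and 0.463 CPM in scrambled and 16.8, 22.1 and 14.3 CPM with siLRWD1-5. That was a 15.5-fold rise (log2 fold change 3.96, SE 0.33, edgeR adjusted p = 9.08e-06), with no overlap between the groups, and the log2 fold change was 3.95 without scrambled 2. F11R, the junctional adhesion molecule JAM-A, had 5.12, 9.97 and 5.02 CPM in scrambled and 38.1, 43.3 and 39.1 CPM with siLRWD1-5, a 6.06-fold rise. Its log2 fold change was 2.60 with all libraries and 2.98 without scrambled 2. DSP, the desmosome linker desmoplakin, had 4.74, 6.89 and 5.25 against 28.9, 29.6 and 31.5 CPM, a 5.36-fold rise. SPINT1, a membrane inhibitor of serine proteases, rose 4.79-fold and EFNA1, an ephrin ligand, 4.51-fold. PRRG4, a membrane protein with a Gla domain, rose 4.80-fold.

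The cytokine genes among them were uneven in both groups. IL6, a proinflammatory cytokine, had 0.253, 2.27 and 0.463 CPM in scrambled and 4.16, 23.1 and 6.33 CPM with siLRWD1-5, an 11.7-fold rise with SE 0.91 on the log2 scale (log2 fold change 3.55, edgeR adjusted p = 0.016). LIF, a cytokine of the same family, had 2.59, 23.3 and 2.70 CPM in scrambled and 33.5, 80.7 and 44.1 CPM with siLRWD1-5, a 5.71-fold rise. KYNU, kynureninase of tryptophan breakdown, had 1.96, 8.83 and 0.926 against 25.9, 40.2 and 19.7 CPM, a 7.55-fold rise. For these genes the highest scrambled library was scrambled 2 and the highest siLRWD1-5 library was replicate 2. The groups did not overlap, as the ranking required. Without scrambled 2, the log2 fold changes of IL6, LIF and KYNU were 4.96, 4.31 and 4.26, against 3.55, 2.51 and 2.92 with it. IL6 lost its call without scrambled 1 (log2 fold change 3.04) or scrambled 3 (3.24). LIF lost its call without scrambled 1 (2.03), scrambled 3 (2.08) or siLRWD1-5 replicate 2 (2.07), with no filter on low counts, and with only these 6 libraries in the fit (both 2.52).

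In 6 other genes among the 15 that rose furthest, as in F11R, scrambled 2 was the highest control and siLRWD1-5 replicate 2 the highest treated library. PTX3, a secreted pentraxin of innate immunity, had 41.3, 144 and 45.2 CPM in scrambled and 447, 649 and 578 CPM with siLRWD1-5, a 7.28-fold rise. CEBPD, a transcription factor of the acute phase response, had 6.25, 14.3 and 6.94 against 46.8, 86.5 and 55.2 CPM, a 6.95-fold rise. TNFAIP2, a gene induced by TNF, rose 7.49-fold and ICOSLG, a ligand that costimulates T cells, 5.02-fold. The chemokine genes CXCL2 and CXCL1 rose 8.22-fold and 6.28-fold, and since they are close copies of each other and of CXCL3, reads may have been split between them. These 6 genes had edgeR adjusted p-values from 1.91e-04 to 0.0027. Without scrambled 2, PTX3 was 12.9-fold and CXCL1 11.3-fold higher.

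Of the 15 genes that fell furthest, PRDX3 fell most. PRDX3, the peroxidase of the mitochondrial matrix, had 252, 218 and 237 CPM in scrambled and 27.2, 26.7 and 30.4 CPM with siLRWD1-5. It was 8.39-fold lower (log2 fold change -3.07, SE 0.08, edgeR adjusted p = 3.02e-09), the only gene called at least 8-fold lower. EI24, an endoplasmic reticulum membrane protein of autophagy, had 172, 201 and 179 against 35.0, 34.7 and 34.0 CPM and was 5.32-fold lower. RCN2, a calcium-binding protein of the endoplasmic reticulum, was 4.63-fold lower (217, 205 and 219 against 44.9, 49.1 and 44.3 CPM). SLC25A24, a mitochondrial carrier of ATP-Mg and phosphate, was 4.24-fold lower (176, 165 and 178 against 40.6, 40.9 and 41.1 CPM). CMC2, a small mitochondrial protein with twin CX9C motifs, was 5.74-fold lower, and DANCR, a long noncoding RNA that hosts small nucleolar RNAs, 4.53-fold lower. GGCT, an enzyme of the glutathione cycle, had 82.6, 49.6 and 86.7 against 14.7, 12.2 and 12.3 CPM and was 5.57-fold lower. ARL6IP6, a membrane protein, was 5.24-fold lower, with 65.5, 39.9 and 60.0 against 11.9, 9.33 and 10.2 CPM. In GGCT and ARL6IP6 scrambled 2 was the lowest control, and above all siLRWD1-5 libraries as the ranking required.

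Several receptor genes were among the 15. NGFR, the p75 neurotrophin receptor, had 12.3, 16.9 and 16 CPM in scrambled and 2.27, 2.15 and 3.41 CPM with siLRWD1-5, 5.79-fold lower. KIT, the receptor of stem cell factor, had 18.4, 8.67 and 21.0 against 4.28, 2.89 and 3.00 CPM, 4.69-fold lower. COLEC12, a scavenger receptor, had 18.1, 3.73 and 14.8 against 3.09, 1.85 and 2.76 CPM, 4.77-fold lower. For KIT and COLEC12 scrambled 2 came closest to the siLRWD1-5 libraries. SPP1, the matrix protein osteopontin, showed the opposite unevenness, with 9.48, 39.1 and 7.64 CPM in scrambled against 2.33, 4.15 and 2.76 CPM. Its log2 fold change was -2.60 with all libraries and -1.49 without scrambled 2, and its call was lost without siLRWD1-5 replicate 1 (-2.42). HIST1H2BD, a histone H2B gene of a multigene family, was 4.70-fold lower and is uncertain because reads can be shared between histone copies.

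**Figure D2:**
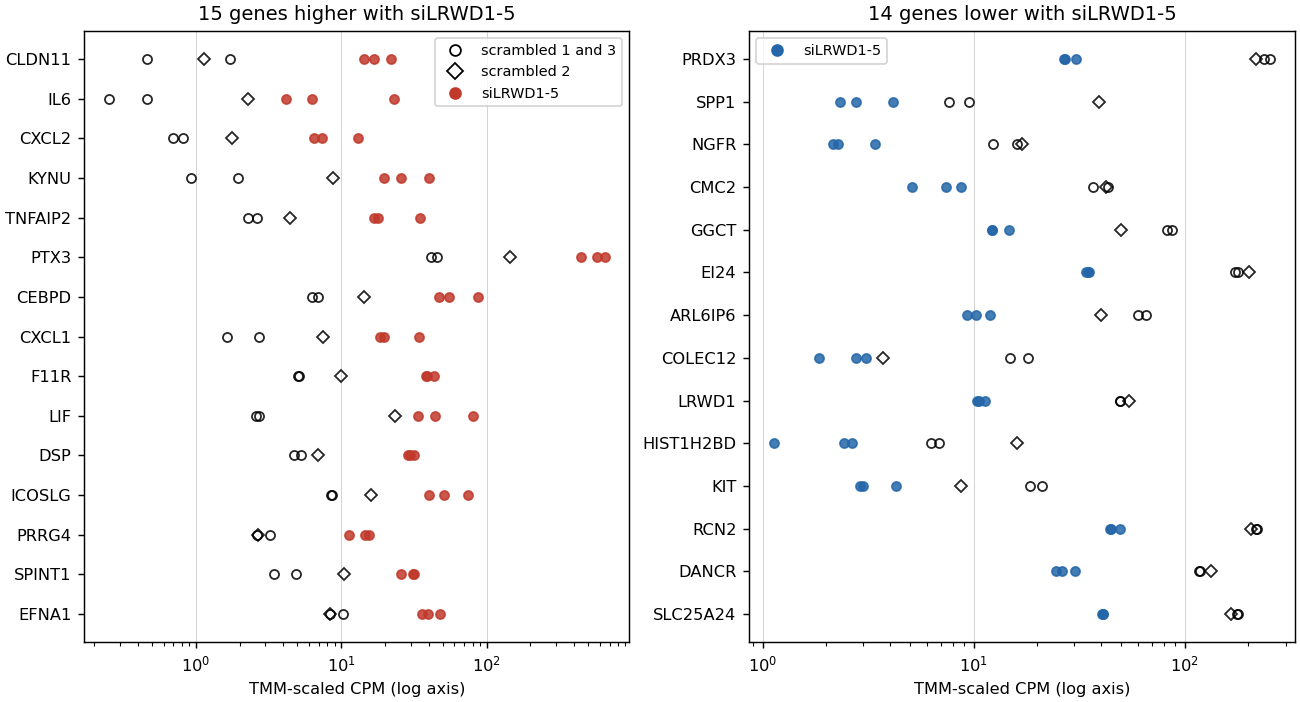
TMM-scaled CPM on a log axis for the 15 genes that rose furthest (left) and 14 of the 15 that fell furthest (right); open circles are scrambled 1 and 3, the open diamond is scrambled 2 and filled circles are the 3 siLRWD1-5 libraries. No gene has overlapping groups, which was a condition of the ranking. Scrambled 2 is the control nearest to the siLRWD1-5 libraries for most genes that rose, IL6, KYNU and LIF among them. It is also the nearest control for some that fell, KIT and COLEC12 among them.

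By difference in CPM the largest changes included matrix, cytoskeletal and glycolytic genes. FN1, the matrix glycoprotein fibronectin, had 12712, 15792 and 12727 CPM in scrambled and 18628, 19909 and 18466 CPM with siLRWD1-5, a 1.38-fold rise (log2 fold change 0.47, SE 0.08, edgeR adjusted p = 0.001). The collagen chaperone gene SERPINH1 rose 1.44-fold with narrow groups (846, 879 and 813 against 1220, 1207 and 1235 CPM), and SPARC, a matricellular collagen binder, rose 1.21-fold. TTC17, a protein with tetratricopeptide repeats, rose 2.72-fold (188, 216 and 204 against 565, 551 and 536 CPM). TDO2, which starts tryptophan breakdown, rose 2.58-fold and the chemokine gene IL8 2.97-fold. TDO2 lost its call without scrambled 1 (log2 fold change 1.24, against 1.37) or siLRWD1-5 replicate 2 (1.25) and with no count filter (1.37). IL8 had a log2 fold change of 2.16 without scrambled 2 and lost its call without scrambled 1 (1.30, against 1.57), scrambled 3 (1.38) or siLRWD1-5 replicate 2 (1.38) and with no count filter (1.57).

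Among abundant genes that fell, MMP1, an interstitial collagenase, had 6435, 10827 and 6982 CPM in scrambled and 4165, 4093 and 4874 CPM with siLRWD1-5, 1.85-fold lower. CSRP1, a LIM protein of the actin cytoskeleton, was 2.69-fold lower (1649, 2458 and 1790 against 655, 801 and 738 CPM). CAV1, which forms caveolae, was 2.57-fold lower (1200, 1751 and 1310 against 529, 584 and 543 CPM), and PKP1, a desmosomal plakophilin, was 2.25-fold lower. Scrambled 2 was the highest control for MMP1, CSRP1, CAV1 and PKP1. The cyclin gene CCND1 was 1.45-fold lower, EEF2, the elongation factor of translation, 1.33-fold, and the glycolytic enzyme genes GAPDH and ENO1 1.35-fold and 1.23-fold.

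Transcripts that fell held certain short words in their 3′ UTRs more often than all genes did. Of the tested genes, 11690 (85.7%) had an annotated 3′ UTR of at least 50 bases (GENCODE v29, the longest per gene). Among 12811 words of 7 bases held by at least 300 of these genes, ACCTGAA had the lowest median log2 fold change (-0.16, 1655 genes) and CCTGAAA the next (-0.14, 2187 genes). These words overlap by all but 1 base and join to ACCTGAAA. Because the words were picked from this contrast, all values on them are a description with no test. Windows of 30 bases around the words are shown for genes named above, to let the sites be compared, as DNA of the transcript strand with the word in capitals.
PRDX3, first site: tgatcaacggtCCTGAAAttttcatcttga
PRDX3, second site: gatccctcatcCCTGAAAttgagtttatgt
NGFR: tcttgggccctCCTGAAActtacacacaaa
CMC2: tctgggttgatACCTGAAAgaatcctgtct
GGCT: gtgtatgagggCCTGAAAtatgtgacaaat
EI24: aacaacactaaACCTGAActtttcaactcc
ARL6IP6: aacaaaaaatgCCTGAAAaaagctaaatta
HIST1H2BD: agtctcatctgCCTGAAAatgactgtgtgg
KIT: ggtcctttagtACCTGAAAagtaacttggc
SLC25A24: cattcttagtaACCTGAAAtttctttttta

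The bases outside the capitals differ from gene to gene. In PRDX3 the sites began at bases 375 and 562 of a 3′ UTR of 777 bases, in EI24 at base 753 of 1004, and in KIT at base 1182 of 2158. Of the 15 genes that fell furthest, 14 had a matched 3′ UTR, and 10 of these held a word, most of them shown in the sequences above. LRWD1, SPP1, COLEC12 and RCN2 held neither word there, and DANCR has no coding transcript. Of the 15 that rose furthest, 4 held a word, namely CLDN11, which rose most, KYNU, TNFAIP2 and PRRG4. LRWD1 held the joined word in its coding region, at bases 478 to 485 of a transcript of 2215 bases, and ACCTGAA again at bases 559 to 565. The window around the first of these is shown to be set beside those of the 3′ UTRs.
LRWD1, coding region: ggtcaatgacaACCTGAAAgtctcctttct

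The siRNA sequences were not used here, so the relation of the words to the guide strand was not tested. Of 2545 human mature microRNAs in the RefSeq table, 0 had UUCAGGU or UUUCAGG, the bases that pair with the words, at positions 2 to 8.

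The share of genes that held either word grew with the size of the fall. It was 25.2% of all 11690 genes, 43.4% of those called lower, 59.8% of those called at least 2-fold lower and 62.5% of those called at least 4-fold lower. Of genes called higher 18.3% held either word. The joined word was held by 5.47% of all genes, 12.3% of those called lower, 34.4% of those called at least 4-fold lower and 2.73% of those called higher. Read the other way, 46.9% of the 639 genes with the joined word were called lower and 9.7% higher, against 15.8% and 21.2% of the 8746 genes with neither word. Their median log2 fold changes were -0.28 and 0.03, and -0.27 and 0.04 without scrambled 2. The 2305 genes with a 7-base word but not the joined one lay between, with a median of -0.10. With siLRWD1-6 the genes with the joined word had a median of 0.02, against the same scrambled libraries.

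**Figure D3:**
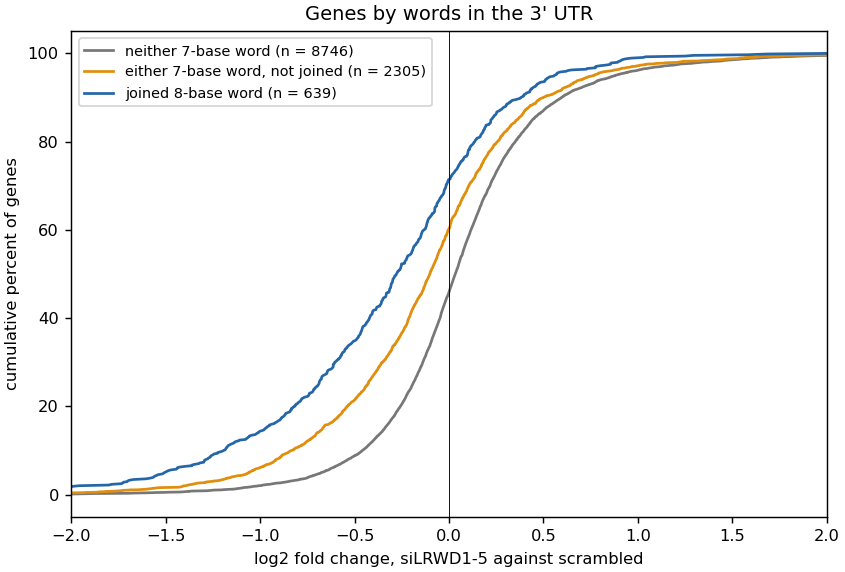
Cumulative percent of genes (vertical axis) by log2 fold change, siLRWD1-5 against scrambled (horizontal axis), for genes with neither 7-base word in the 3′ UTR (grey, 8746), with either word but not the joined one (orange, 2305) and with the joined 8-base word (blue, 639). The blue line lies furthest to the left, with a median of -0.28 against 0.03 for the grey line.

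Genes with the joined word had longer 3′ UTRs, a median of 3446 bases against 1107 for genes with neither word. Within bands of 3′ UTR length the difference was present in each. For 3′ UTRs of 1000 to 1999 bases the median log2 fold change was -0.55 for the 101 genes with the joined word and 0.03 for the 2298 with neither. For 3′ UTRs of at least 2000 bases the values were -0.21 and 0.05, for 500 to 999 bases -0.29 and 0.04, and for 50 to 499 bases -0.46 (17 genes) and 0.02. The 450 genes with the joined word in the coding region and neither word in the 3′ UTR had a median of -0.19, with 36.9% called lower. When all annotated coding transcripts were searched in place of the one with the longest 3′ UTR, 28.6% of genes called lower held ACCTGAA, against 26.1%. A wider search can only keep or raise this share. As it is not given for all genes, it does not show whether the difference between genes persisted.

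NF-kB and inflammatory genes were the list with the highest median. NF-kB factors are held in the cytoplasm by IkB proteins, and once released they switch on cytokine, chemokine and adhesion genes together with their own inhibitors. Of 38 genes in the list 36 were tested, and 21 rose and 2 fell, with a median log2 fold change of 0.95, against -0.006 for all 13648 genes. Without scrambled 2 the counts were 27 and 2 and the median was 1.42.

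Secreted factors rose furthest within the list. CCL2, the monocyte chemokine, had 107, 109 and 88.0 CPM in scrambled and 404, 572 and 367 CPM with siLRWD1-5 (log2 fold change 2.14, SE 0.22, edgeR adjusted p = 1.07e-04), with scrambled 2 level with the other controls. CSF2, which encodes GM-CSF, had a log2 fold change of 2.99 from a mean of 0.81 CPM, and 4.61 without scrambled 2. Of adhesion and receptor genes, ICAM1 had 76.6, 123 and 77.2 against 232, 288 and 288 CPM (1.55), VCAM1 rose by 1.64 and the TNF receptor family gene TNFRSF9 by 1.44. The genes of the NF-kB system itself rose less, NFKB1 by 0.59, NFKB2 by 0.65, RELB by 0.69 and the inhibitor NFKBIA by 0.84, while the inhibitor NFKBIE fell by 0.68. NFKBIZ, an atypical IkB protein of the nucleus, rose by 1.45 and the apoptosis inhibitor BIRC3 by 1.54. All these are log2 fold changes of genes called by edgeR.

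Several other members did not pass with all libraries and were high in scrambled 2. IER3, an early response gene, had 190, 491 and 196 CPM in scrambled and 400, 675 and 536 CPM with siLRWD1-5 (log2 fold change 0.88, edgeR adjusted p = 0.11). SOD2, the mitochondrial superoxide dismutase, had 118, 350 and 128 against 242, 441 and 273 CPM (0.69, adjusted p = 0.27). TNFAIP3, the ubiquitin-editing inhibitor A20, had 97.8, 310 and 113 against 220, 329 and 263 CPM (0.64, adjusted p = 0.28). In each, scrambled 2 lay within the range of the siLRWD1-5 libraries and scrambled 1 and 3 lay below it. Without scrambled 2 these 3 genes passed, with log2 fold changes of 1.47, 1.37 and 1.36. With the series number as a block, which compares libraries of the same number, IER3 (adjusted p = 0.01), SOD2 (0.0091) and TNFAIP3 (0.035) passed with all libraries.

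**Figure D4:**
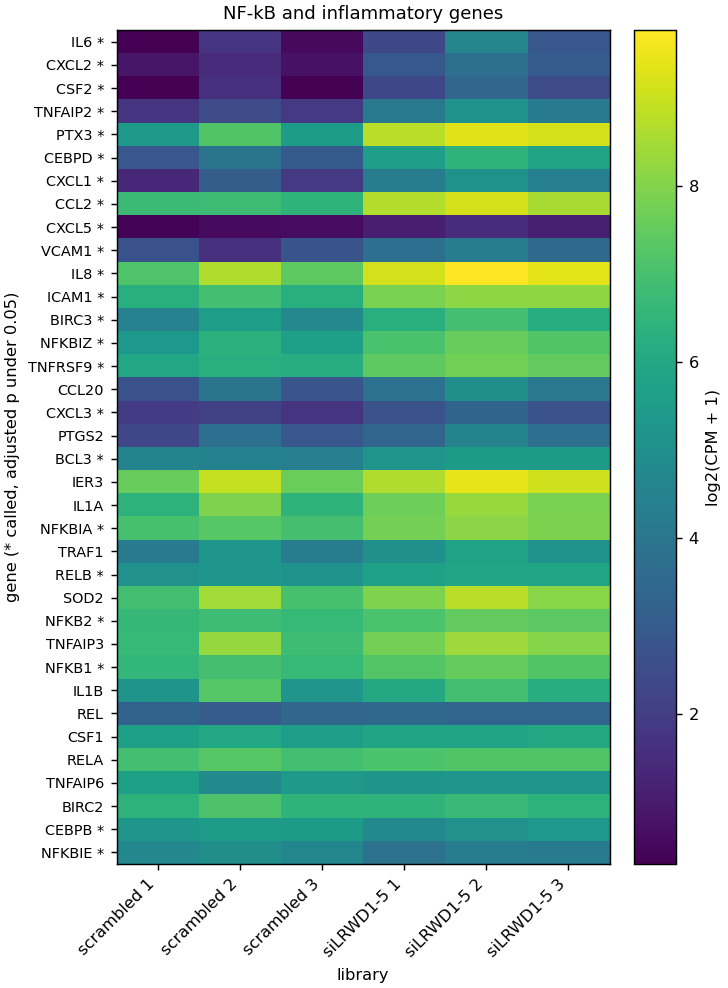
Level of the 36 tested NF-kB and inflammatory genes in each of the 6 libraries, as log2(CPM + 1), ordered by log2 fold change; a star marks genes called with all libraries. CCL2 and ICAM1 are higher in every siLRWD1-5 library, whereas SOD2, TNFAIP3 and IER3 are also high in scrambled 2.

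The promoters of the genes that rose in this list often held letters of the NF-kB site. The 9 letters GGANTTTCC were searched on both strands, from 250 bases before to 50 after the start site, in the RefSeq promoter table (GRCh38.p14). The letters were chosen after the rising genes were known and the list itself is made of known NF-kB targets, so the shares are a description and no support. Of the 21 members called higher, 18 had a promoter in the table and 11 of these held the letters (61.1%). Of 12 members not called higher with a promoter, 2 held them (16.7%), as did 1.65% of all 9526 tested genes with a promoter and 2.83% of all 1836 genes called higher with one. Windows of 30 bases are shown for 5 of the genes described, on the strand of the gene, with the letters or their reverse complement in capitals.
CXCL1, chr4:73869305-73869334, plus strand: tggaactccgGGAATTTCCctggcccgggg
IL8, chr4:73740468-73740497, plus strand: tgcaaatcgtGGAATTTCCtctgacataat
IL6, chr7:22727118-22727147, plus strand: atcaaatgtgGGATTTTCCcatgagtctca
ICAM1, chr19:10270924-10270953, plus strand: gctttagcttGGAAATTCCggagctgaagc
NFKBIA, chr14:35404811-35404840, minus strand: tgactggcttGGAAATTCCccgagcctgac

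These matches began 78, 91, 72, 186 and 81 bases before the start site. A match says only that the letters are there, and binding was not measured in these libraries.

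Antigen presentation and interferon response genes also rose. Of 18 genes of MHC class I presentation 10 rose and 1 fell (median log2 fold change 0.60), and 14 and 1 without scrambled 2. The peptide transporter genes TAP1 and TAP2 rose by 1.54 and 0.95 on the log2 scale, and the immunoproteasome subunit genes PSMB9 and PSMB8 by 1.8 and 1.00. Of the class I heavy chains, HLA-B rose by 0.76 and HLA-C fell by 0.31, a call lost without siLRWD1-5 replicate 1 (-0.25) and with only these 6 libraries in the fit (-0.30). HLA genes are near-identical in long stretches, so their counts are uncertain. Of 35 interferon response genes 14 rose and 3 fell (median 0.24), or 15 and 4 without scrambled 2, with 1 lower without scrambled 3 or siLRWD1-5 replicate 2. IRF1, a factor induced by interferon and by NF-kB, rose by 1.40, the guanylate-binding protein genes GBP1 and GBP2 both by 1.01, and PARP14 by 0.95.

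Genes that transmit IL6 and LIF signals had no common direction. Among the 27 tested gp130 cytokine and JAK-STAT genes 7 rose and 7 fell (each 25.9%, median 0.03), against 18.5% and 20.3% of all genes. Without scrambled 2 the counts were 10 and 8. IL6R, the IL6 receptor chain, had 41.6, 51.6 and 40.3 CPM in scrambled and 10.5, 11.5 and 11.5 CPM with siLRWD1-5 (3.99-fold lower, SE 0.11 on the log2 scale, edgeR adjusted p = 2.37e-07). Its 3′ UTR held the joined word. STAT3 fell by 0.62 and JAK1 by 0.40, while the shared receptor chain gene IL6ST rose by 0.25, a call lost when any single library other than scrambled 2 was left out (0.19 to 0.34 over all alternatives).

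Junction and matrix genes changed in both directions. Of 22 tight junction genes 7 rose (31.8%) and 2 fell (9.09%), against 18.5% and 20.3% of all genes. CLDN11, F11R, CLDN5 and JAM2 were among those that rose. JAM3 fell by 0.48 and CLDN15 by 0.30, the latter with its call lost in 12 of 15 alternatives (-0.36 to -0.19). Of 20 genes of desmosomes and intermediate filaments 7 rose and 4 fell, with DSP and the plakin gene PPL (1.19) higher and PKP1 (-1.17) and the lamin gene LMNB1 (-1.17) lower. The 7 that rose became 3 without scrambled 3 and 4 without siLRWD1-5 replicate 2 or 3. Of 41 collagens and collagen-modifying enzymes 18 rose and 3 fell (median 0.40), or 19 and 3 without scrambled 2. COL5A1 rose by 0.60, COL11A1 by 0.99 and P4HA2, a collagen prolyl hydroxylase, by 1.58, from 55.5 to 166 CPM on average, whereas COL5A3 and COL21A1 fell by 0.89 and 0.88. Of 40 matrix glycoproteins 15 rose and 4 fell (median 0.36), or 20 and 8 without scrambled 2. The 4 that fell became 2 without scrambled 1, scrambled 3 or siLRWD1-5 replicate 2 and 1 without siLRWD1-5 replicate 1. The laminin gene LAMB1 rose by 0.52. The proteoglycan gene BGN fell by 0.79, a call lost in 5 of 15 alternatives, which left out any single library other than scrambled 2 and siLRWD1-5 replicate 3 or the count filter (-0.99 to -0.62 over all).

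Integrin and focal adhesion genes had no common direction (median 0.04). Of 28 integrin and focal adhesion genes 5 rose (17.9%) and 10 fell (35.7%), against 18.5% and 20.3% of all genes. Those that fell became 4 without siLRWD1-5 replicate 1 and 5 without replicate 2. Without scrambled 2, 11 rose and 9 fell. PARVA and ILK, partners in one adhesion complex, fell by 1.41 and 0.82, the fibronectin receptor gene ITGA5 by 0.62 and the vinculin gene VCL by 0.53, while ITGA1 rose by 1.03 and ITGAV by 0.55. Words in the 3′ UTR were held by PARVA and ITGA5, which fell, and by ITGAV and ITGA1, which rose. ITGA1 held the joined word, and ILK and VCL held neither word. Of the matrix proteases, PLAUR, the urokinase receptor, fell by 1.40 and MMP2 by 0.71, and MMP14 rose by 0.46.

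Genes of translation were called lower more often than higher. Of 80 cytosolic ribosomal protein genes 55 fell and 0 rose (median log2 fold change -0.28), and 56 fell and 2 rose without scrambled 2. RPL4 fell by 0.42, RPL35 by 0.73 and RPS18 by 0.47. At an unscaled library size, 1 member was called higher and the median was -0.23. These genes have many near-identical pseudogene copies, which makes single members uncertain. Of 76 mitochondrial ribosomal protein genes 29 fell and 2 rose (median -0.13), or 28 and 4 without scrambled 2, and MRPL32, MRPL35, MRPL10 and MRPL37 fell by 1.06 to 1.25. Of 38 ribosome biogenesis genes 11 fell (28.9%, against 20.3% of all genes) and 0 rose.

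Nuclear genes of the respiratory chain were counted for complex I and for complexes II to V together. Of 37 complex I subunits 9 fell (24.3%, near the 20.3% of all genes) and 0 rose, with NDUFB10 lower by 1.37 from 82.4 CPM. The median of that list was -0.02, with 18 members above and 19 below 0, and 0.03 with library size as the only scaling. Of 40 subunits of complexes II to V 20 fell and 3 rose (median -0.17), or 21 and 3 without scrambled 2. The 3 that rose became 1 without scrambled 1, scrambled 3, or siLRWD1-5 replicate 1 or 2. SDHC of complex II fell by 1.18, COX4I1 of cytochrome oxidase by 1.09, UQCR11 of complex III by 1.09 and ATP5D of the ATP synthase by 1.06. LRPPRC, which stabilises mitochondrial messenger RNAs, fell by 0.76 and held a word in its 3′ UTR.

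Of 37 proteasome subunit genes 15 fell and 2 rose (median -0.13), and the 2 that rose were the immunoproteasome genes PSMB8 and PSMB9. PSMB1 fell by 0.96 (282 to 145 CPM on average) and PSMD1 by 0.71, and both held a word in the 3′ UTR. Of the 30 heat shock genes 11 fell and 2 rose, HSPA8 by 0.52 and HSP90AA1 by 0.53 among those that fell. The chaperones of the endoplasmic reticulum went the other way, with 19 of 33 genes higher and 3 lower (median 0.23), 25 and 3 without scrambled 2, and 12 higher without scrambled 1. PDIA6 rose by 0.42, SEC61A1 of the translocon by 0.54 and DNAJB11 by 0.43, whereas DNAJB9 fell by 0.48. HSPA5, the main chaperone there, rose by 0.29 and lost its call without scrambled 1 (0.21) or siLRWD1-5 replicate 3 (0.26). Its 3′ UTR also held a word.

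Members called lower held the 3′ UTR words at different shares from list to list. Of the 48 cytosolic ribosomal protein genes called lower that had a 3′ UTR, 9 held a word (18.8%), against 43.4% of all genes called lower. For mitochondrial ribosomal proteins the share was 10 of 29 (34.5%), for proteasome subunits 5 of 15 (33.3%), for EWS-FLI1-activated genes 7 of 26 (26.9%), for origin licensing genes 5 of 11 (45.5%). Of 9 WNT genes called lower, in a list with 7 called higher, 7 held a word (77.8%). These shares are counts with no test. Among all members with a 3′ UTR, 16 of 71 cytosolic ribosomal, 13 of 75 mitochondrial ribosomal and 6 of 37 proteasome genes held a word. So did 11 of 45 EWS-FLI1-activated, 7 of 25 origin licensing and 15 of 42 WNT genes. Median 3′ UTRs of these lists were 629, 508, 317, 1333, 1175 and 1741 bases, against 1444 for all genes. The part of 3′ UTR length in the shares was not tested.

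The number of DNA replication and cell cycle genes that passed differed with and without scrambled 2. Of 25 origin licensing and firing genes, the pathway LRWD1 belongs to, 11 fell (44%, against 20.3% of all genes) and 0 rose (median -0.21), and 22 fell without scrambled 2. TOPBP1, which helps fire origins and activates the ATR kinase, had 114, 84.0 and 126 CPM in scrambled and 49.1, 47.4 and 46.1 CPM with siLRWD1-5 (log2 fold change -1.18, SE 0.12, edgeR adjusted p = 3.41e-05), and its 3′ UTR held the joined word 2 times. CDC6, which loads the MCM helicase, had 98.4, 63.5 and 99.7 against 48.1, 40.8 and 43.1 CPM (-0.99). In both, scrambled 2 was the lowest control and the groups did not overlap. Among subunits of the origin recognition complex, ORC1, ORC2, ORC3 and ORC5 fell by 0.51 to 0.71. These were picked as members called lower, and the other subunits are not described.

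Of 29 replication fork genes 7 fell (24.1%, near the share of all genes) and 1 rose, or 17 and 1 without scrambled 2, with 3 higher under the replicate block. The median of the fork list was -0.12, and from -0.30 to 0.01 over the alternatives. Of 36 mitotic genes 7 fell (19.4%) and 1 rose, or 22 and 3 without scrambled 2, with 3 higher under the block. CDC20, which activates the ubiquitin ligase that starts anaphase, had 179, 109 and 170 CPM in scrambled and 38.7, 34.7 and 38.2 CPM with siLRWD1-5 (log2 fold change -2.04, SE 0.17, edgeR adjusted p = 1.74e-05), and its checkpoint partner MAD2L1 fell by 1.42. Of 32 DNA damage genes 13 fell and 1 rose, or 20 and 1 without scrambled 2. The Ku subunit gene XRCC6 fell by 1.10 with tight groups (424, 438 and 428 against 193, 217 and 194 CPM), the scaffold gene MDC1 by 1.11 and the checkpoint kinase gene CHEK1 by 0.91. XRCC6, MDC1 and CDC20 held neither word in the 3′ UTR, while MAD2L1 held a word.

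Genes that EWS-FLI1 activates in Ewing sarcoma cells were lower as a group. Of 45 tested 26 fell and 4 rose (median log2 fold change -0.51), and 30 fell and 6 rose without scrambled 2. CAV1, the potassium channel subunit gene KCNE3 (-1.35) and the metalloreductase gene STEAP2 (-1.32) fell furthest. XG, a surface antigen gene, fell by 1.24. The nuclear receptor gene NR0B1 fell by 0.83, the kinase gene PRKCB by 0.73 and the homeobox gene NKX2-2 by 0.53. Of the A673 marker genes 6 of 8 fell and 0 rose, FLI1 among them by 0.52. Genes repressed by EWS-FLI1 had 9 higher (24.3%) and 5 lower (13.5%) of 37, against 18.5% and 20.3% of all genes. The counts were 18 and 7 without scrambled 2, with 14 higher under the replicate block and 3 lower without siLRWD1-5 replicate 1. RUNX2, a bone transcription factor, rose by 1.46 and the feedback inhibitor gene SPRY1 by 1.5, while SPRY4 fell by 0.88.

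Growth factor signalling changed gene by gene. Of 36 MAPK feedback and immediate early genes 4 rose (11.1%) and 9 fell (25.0%), against 18.5% and 20.3% of all genes. Without scrambled 2 the counts were 12 and 10. The 4 that rose became 2 without scrambled 3 and 7 under the replicate block. The ETS genes ETV5, ETV1 and ETV4, targets of the MAPK pathway, fell by 1.56, 1.19 and 0.83, whereas the AP-1 gene FOSL2 rose by 0.96, a call lost without scrambled 3 (0.85). Of 33 IGF and insulin genes 13 rose (39.4%) and 5 fell (15.2%), or 14 and 7 without scrambled 2. RHEB, the small GTPase that activates mTORC1, had 36.3, 38.4 and 34.1 CPM in scrambled and 8.32, 10.2 and 9.5 CPM with siLRWD1-5 (log2 fold change -1.96, SE 0.10, edgeR adjusted p = 1.51e-07), and its 3′ UTR held the joined word. The adaptor gene IRS2 fell by 1.51 and held neither word, while the receptor gene INSR rose by 0.51.

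Other receptor families had members called in both directions, which also holds for all genes (18.5% higher, 20.3% lower). WNT genes were near those shares, with 16.7% higher and 21.4% lower. Receptor tyrosine kinases had 25.7% and 17.1%, and axon guidance genes 34.6% and 15.4%. TGF-beta and BMP genes had 24.4% higher, and their share called lower was near that of all genes. Whether any of these lists departs from all genes was not tested. Of 35 receptor tyrosine kinases 9 rose and 6 fell, or 12 and 11 without scrambled 2, EGFR by 0.89 upward and EPHB3 by 1.04 downward. The neurotrophin receptor gene NGFR fell by 2.53, and the ligand gene BDNF rose by 0.78, a call lost without siLRWD1-5 replicate 2 (0.66). The 3′ UTR of BDNF held the joined word. Of 52 axon guidance genes 18 rose and 8 fell (19 and 11 without scrambled 2), among them the receptor gene ROBO1 (1.29, from 111 to 272 CPM on average) higher and its ligand gene SLIT2 (-1.03) and the netrin receptor gene DCC (-0.96) lower. Of 42 WNT genes 7 rose and 9 fell, or 10 and 12 without scrambled 2, with 5 Frizzled receptor genes lower (FZD1, FZD2, FZD4, FZD6 and FZD7) and 1 higher (FZD5). The call of FZD4 (-0.44) was lost in 5 of 15 alternatives, among them without scrambled 1, scrambled 3 or siLRWD1-5 replicate 2. Of 45 TGF-beta and BMP genes 11 rose and 9 fell, with TGFB2 (0.99) higher and the BMP antagonist gene GREM1 (-1.86) lower.

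Redox and metabolic lists changed in both directions. PRDX3 was the only peroxiredoxin called lower, while PRDX4 and PRDX5 rose by 0.36 and 0.35. Of 36 glutathione and NRF2 genes 12 fell (33.3%) and 6 rose (16.7%), against 20.3% and 18.5% of all genes. There were 7 lower without siLRWD1-5 replicate 1 and 11 higher without scrambled 2. HMOX1, haem oxygenase, had 21.1, 55.3 and 19.4 against 8.76, 10.4 and 10.2 CPM. Its log2 fold change was -1.70, and -1.06 without scrambled 2, the highest control. Of 34 cholesterol genes 7 rose (20.6%) and 2 fell (5.88%), with a median of 0.06. But without scrambled 2 the counts were 7 and 10 and the median -0.11, and 4 rose without siLRWD1-5 replicate 1. MSMO1, a sterol methyl oxidase, fell by 1.85, and its 3′ UTR held a word, while DHCR7 and EBP rose by 0.62 and 0.52. Of 33 glycolysis and hypoxia genes 12 fell (36.4%) and 4 rose (12.1%), VEGFA by 0.89 downward. The 4 that rose became 2 without scrambled 1 or 3.

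Lists of cell death and stress differed in direction. The median log2 fold change was 0.13 for BCL2 family and caspases and -0.08 for ATF4 and amino acid response. Over the alternatives these medians ran from 0.12 to 0.19 and from -0.11 to -0.02. Of 36 BCL2 family and caspase genes 12 rose (33.3%) and 4 fell (11.1%), against 18.5% and 20.3% of all genes. Without scrambled 2 the counts were 17 and 5. The BH3-only gene BBC3 was higher by 1.11. Of 29 p53 target genes 7 rose (24.1%) and 5 fell (17.2%), or 11 and 6 without scrambled 2. PLK2 rose by 1.20 and MDM2 fell by 0.87. Of 40 ATF4 and amino acid response genes 4 rose (10.0%) and 11 fell (27.5%), or 6 and 16 without scrambled 2. ATF4 itself was lower by 0.45. Of 43 autophagy and lysosome genes 13 rose (30.2%) and 7 fell (16.3%). Those that rose became 8 without scrambled 3 or siLRWD1-5 replicate 1 or 2, and those that fell 4 without siLRWD1-5 replicate 2. Of 29 heterochromatin and Polycomb genes 3 rose (10.3%) and 5 fell (17.2%), or 4 and 11 without scrambled 2. Under the replicate block 5 were higher, and DNMT3A was higher by 0.65 with all libraries.

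**Figure D5:**
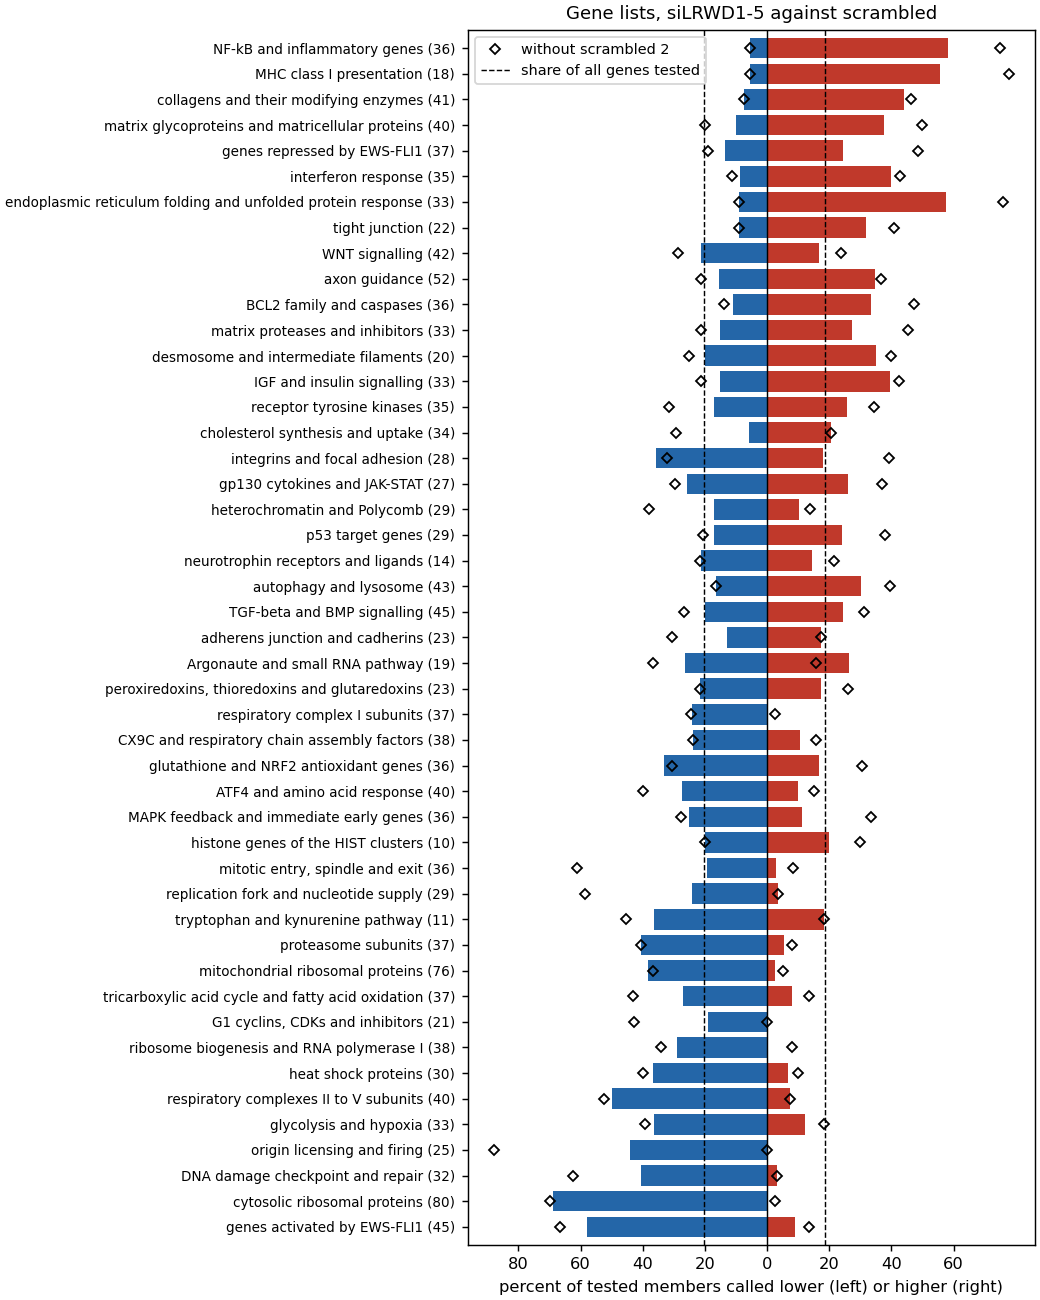
For each gene list (number tested in brackets, ordered by median log2 fold change) the bars give the percent of tested members called lower (blue, to the left) or higher (red, to the right), siLRWD1-5 against scrambled; open diamonds give the same without scrambled 2 and dashed lines the share of all genes tested (18.5% higher, 20.3% lower). The diamonds stand furthest from the bars for origin licensing, mitosis and the replication fork.

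The genes furthest from scrambled with siLRWD1-5 were compared with siLRWD1-6, which shares the scrambled controls, by the direct contrast between the siRNAs. That contrast called 5919 genes (43.4%), and siLRWD1-6 against scrambled called 1203 higher (8.81%) and 1062 lower (7.78%). The genes counted next were picked for large changes in the same siLRWD1-5 libraries, which favours a difference from siLRWD1-6. Their counts are therefore a description and no support. All 15 genes that rose furthest were higher with siLRWD1-5 than with siLRWD1-6, and 1 of them, EFNA1, was also called higher with siLRWD1-6 (log2 fold change 1.12, against 2.17). Of the 15 that fell furthest, 13 were lower with siLRWD1-5 than with siLRWD1-6, and 4 (PRDX3, LRWD1, RCN2 and DANCR) were also called lower with siLRWD1-6 against scrambled, RCN2 by 0.21 and DANCR by 0.42. SPP1 was not called in the direct contrast (log2 difference -0.54, adjusted p = 0.59), and LRWD1 was higher with siLRWD1-5 than with siLRWD1-6 (0.48, adjusted p = 0.0058). PRDX3 had a log2 fold change of -0.30 with siLRWD1-6 (adjusted p = 0.015) against -3.07 with siLRWD1-5, and EI24 0.02 (adjusted p = 0.90) against -2.41. These p-values are edgeR's, adjusted over all genes.

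Some genes passed without scrambled 2 and not with it in the fit without a block. C3, a complement component, had 8.97, 46.7 and 8.80 CPM in scrambled and 50.3, 115 and 61.9 CPM with siLRWD1-5. Its log2 fold change was 1.84 with all libraries (edgeR adjusted p = 0.064) and 3.09 without scrambled 2. ADAMTS9, a matrix protease, went from 1.69 to 3.38, IGFBP5, an IGF-binding protein, from 0.87 to 1.83, and CTSS, a lysosomal protease, from 0.99 to 1.75. In the other direction TMEM119 went from -1.25 to -1.69, the protocadherin gene PCDH18 from -1.03 to -1.44 and AMOT, angiomotin, from -0.74 to -1.11. For PCDH18 the scrambled libraries had 20.2, 4.78 and 16.4 CPM against 6.30, 6.15 and 8.04 CPM with siLRWD1-5, so scrambled 2 lay below the siLRWD1-5 libraries. These genes have n = 2 controls in that fit. With the replicate block and all libraries, C3 (edgeR adjusted p = 0.0030), ADAMTS9 (0.0039), CTSS (0.0031) and TMEM119 (0.048) also passed, while IGFBP5 (0.056), PCDH18 (0.098) and AMOT (0.096) did not.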

How the data were processed

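Libraries were prepared with TruSeq RNA v2, an unstranded chemistry, per the labels' protocols. The authors deposited 1 table of raw read counts for 23368 gene symbols and 9 libraries, made with bcl2fastq 1.8.4, TopHat2 2.0.10, HTSeq 0.5.4p3 and hg19, per the submitters' processing notes; for the annotation and the strand setting the entry is: not given in the sources used here. Genes with an overlapping antisense partner cannot be told apart from it. No column was left unmapped. Groups and replicate numbers came from the labels.

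Counts were filtered with filterByExpr (13648 genes), TMM-scaled and tested in R 4.3.3 with edgeR 4.0.16 (robust quasi-likelihood fit, all 9 libraries, group as the only term, Benjamini-Hochberg over all genes, threshold 0.05). P-values measure the spread between 3 experiments of 1 cell line. The fit was tested on simulated counts. The members and lists were chosen with earlier results of these data known, so list counts are descriptions. Same-numbered libraries deviated together (correlations 0.251, 0.371 and 0.114 for the numbers of the labels), although scrambled 3 with siLRWD1-5 1 (0.138) and scrambled 1 with siLRWD1-5 3 (0.110) did so too.

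Named genes were LRWD1 and, per direction, the 15 with the largest log2 fold change and the 8 with the largest CPM difference, if called with and without scrambled 2, at 5 CPM or more and with groups not overlapping. Added to these were the 5 per direction that passed only without scrambled 2, and up to 4 called members per list and direction; other list members named were chosen after their values were seen; ranked names skip small RNA, antisense and uncharacterised loci. Alternatives were other scalings, filters and tests (DESeq2 1.42.0, limma-voom 3.58.1), the replicate block, smaller sets of libraries and each library left out. 3′ UTR words came from GENCODE v29 (GRCh38) transcripts, matched by symbol and older symbol; promoters and microRNAs came from RefSeq. Since the counts are on hg19, coordinates are given only for RefSeq promoters. The promoter letters were added after the data were seen. A few genes that the naming rule picked are not reported here.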

Additional observations from a re-analysis of the deposited data

How the results depend on the processing

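Over 15 alternatives the number of genes called higher ran from 1956 to 3326 and lower from 2233 to 3464, each within 1.5 times the count with all libraries, as were the counts of at least 2-fold changes. Leaving out 1 library gave 1956 to 3326 higher and 2233 to 3464 lower, both highest without scrambled 2. With the replicate block the counts were 2887 and 3038, and 5263 of the 5292 called genes kept their call, 29 lost it and 662 were added; none of the 45 genes named by fold or CPM difference lost its call under the block. Scaling by library size alone gave 3101 higher and 2320 lower and moved the median of all genes by 0.052 on the log2 scale, and DESeq2 gave 2475 and 2605. Of these 45 genes, 39 were called in every alternative, though the call without scrambled 2 was fixed by the naming rule. The others, HSPA5, IL6, IL8, LIF, SPP1 and TDO2, lost their call in at least 1 and none of the 45 changed direction. Of all 367 called genes covered by the naming rule or named in the text, 45 lost their call in at least 1 alternative and 0 changed direction. KRT75, called only without scrambled 2, had a log2 fold change of 0.34 with all libraries and 1.81 without scrambled 2, but -0.08 without scrambled 1, -0.06 without scrambled 3 and -0.21 without siLRWD1-5 replicate 2; the cause was not tested. The list medians of complex I, peroxiredoxins, adherens junctions and the small RNA pathway differed in sign between scalings, and 17 of 49 list medians, cholesterol, MAPK, integrins and the replication fork among them, turned or reached 0 in at least 1 alternative. The median standard error was 0.289 for the genes of lowest expression, which limits small changes there.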
